A study of Mus musculus with 20 samples.

Results

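The genes described here encode the enzymes that write, maintain and remove DNA methylation and those that remove acetyl groups from histones or place and remove methyl groups there, measured in visceral adipose tissue (VAT) of mice after an obesogenic diet. Members were taken by gene symbol: the DNA methyltransferases (Dnmt1 and the Dnmt3 genes), the Tet genes, Uhrf1 and Uhrf2, the numbered histone deacetylases (Hdac), the sirtuins (Sirt), the lysine demethylases (Kdm), the Kmt2 methyltransferases, and Ezh1 and Ezh2. This gave 54 of the 37,074 gene names on the array, including the antisense transcripts Dnmt3aos and Dnmt3bos, whose names the rule takes in although they encode no enzyme. Of these, 53 had a probe well above background on at least 6 arrays and were tested, and for 52 of them the probe used was well above background on all 20 arrays. Kdm4d was well above background on 2 arrays and was not tested.

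Each of the 20 single-colour Agilent arrays was hybridized with RNA of the VAT of 1 male C57bl/6J mouse of the third generation of a lineage. The 6 Ref mice (labelled STD with control fatty acid) came from the control/oleic lineage, bred on a diet with added high-oleic sunflower oil, and received a normocaloric diet. The 6 HFoleic mice (HFD with control fatty acid) came from the same lineage and received a high-fat, high-sucrose diet. The 8 HFepa mice (HFD with n-3PUFA) came from a lineage whose breeding diet had added fish oil as a source of EPA, an omega 3 fatty acid, and received that same obesogenic diet. No group of the EPA lineage on the normocaloric diet is among the arrays, so the HFepa vs. Ref comparison differs in both lineage and diet. The labels give no age and do not say how the mice are related, so the p-values measure the spread between these mice. The share of spots well above background had a median of 68.1% in Ref, 68.5% in HFoleic and 69.5% in HFepa, with extremes of 66.1% and 71.9% among the arrays.

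As background, Dnmt3a and Dnmt3b place methyl groups on unmethylated DNA, Dnmt3l is a cofactor without catalytic activity of its own, and Dnmt1 copies methylation to the new strand after replication, brought to it by Uhrf1. Tet enzymes oxidize the methyl group and so start its removal. Histone deacetylases and the sirtuins of the nucleus remove acetyl groups from histones, Kdm enzymes remove methyl groups from histone lysines, and Kmt2 and Ezh enzymes place them, at marks of active and of silenced genes respectively. In adipose tissue these enzymes act in adipocytes and also in the macrophages and other stromal cells, whose number rises in obesity. In RNA of whole tissue, fewer cells of a type and less RNA per cell cannot be told apart.

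Several arrays stood apart in lists of marker genes that hold none of the members. The 24 genes of a proliferating-cell list, the 12 macrophage genes and the 12 lipid-associated macrophage genes, lists written by hand, gave a mean log2 intensity per array. For the lipid-associated macrophage list, which includes Trem2 and whose brightest gene was Lpl, also a gene of adipocytes, HFepa mouse 6 reached 14.10, within the HFoleic range of 12.99 to 14.48, and HFepa mouse 1 reached 14.75, above it. The other 6 HFepa mice lay at or below 12.67 and the Ref mice between 10.76 and 11.60. HFoleic mouse 1 was the lowest of its group in this list. Testis markers were raised in Ref mouse 3 (7.73), Ref mouse 6 (7.90), HFoleic mouse 5 (8.51) and HFepa mouse 4 (7.77), against at most 6.81 on the other arrays, and epididymis markers were highest in HFepa mouse 2 (9.06) and Ref mouse 3 (7.23), against at most 6.55 on the other arrays. Only 6 of 12 testis and 3 of 12 epididymis markers were well above background on enough arrays to enter these means. Adipoq, the adipocyte hormone that identifies the tissue, was bright in all groups, with log2 intensities of 18.13 ± 0.09 in Ref (SD, n = 6), 18.10 ± 0.12 in HFoleic (SD, n = 6) and 18.06 ± 0.15 in HFepa (SD, n = 8).

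The first comparison asks how the obesogenic diet changed these genes within the control lineage (HFoleic vs. Ref). Of the 53 tested members, 26 changed at an adjusted p below 0.05, 8 being over represented in HFoleic and 18 in Ref. The members that rose were, from the largest log2 fold change, Dnmt3l, Uhrf1, Hdac9, Dnmt3aos, Dnmt3a, Dnmt1, Kdm1b and Hdac8. Those that fell included Hdac4, Sirt1, Tet2, Ezh1, 7 lysine demethylases and 4 of the 5 Kmt2 genes. The obesogenic diet moved much of the transcriptome in this lineage: 31.9% of all tested gene names were called, 15.2% over represented in HFoleic and 16.7% in Ref, against 49.1% of the members. The median log2 fold change was -0.13 over the members and -0.04 over all gene names. Without the 5 arrays with raised testis or epididymis markers, 15 members were called, 6 higher and 9 lower, beside 17.2% of all gene names. The calls lost there were those of Hdac3, Hdac8, Hdac10, Sirt4, Kdm1b, Kdm3b, Kdm6a, Kmt2b, Kmt2c, Kmt2e and Ezh1.

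**Figure D1:**
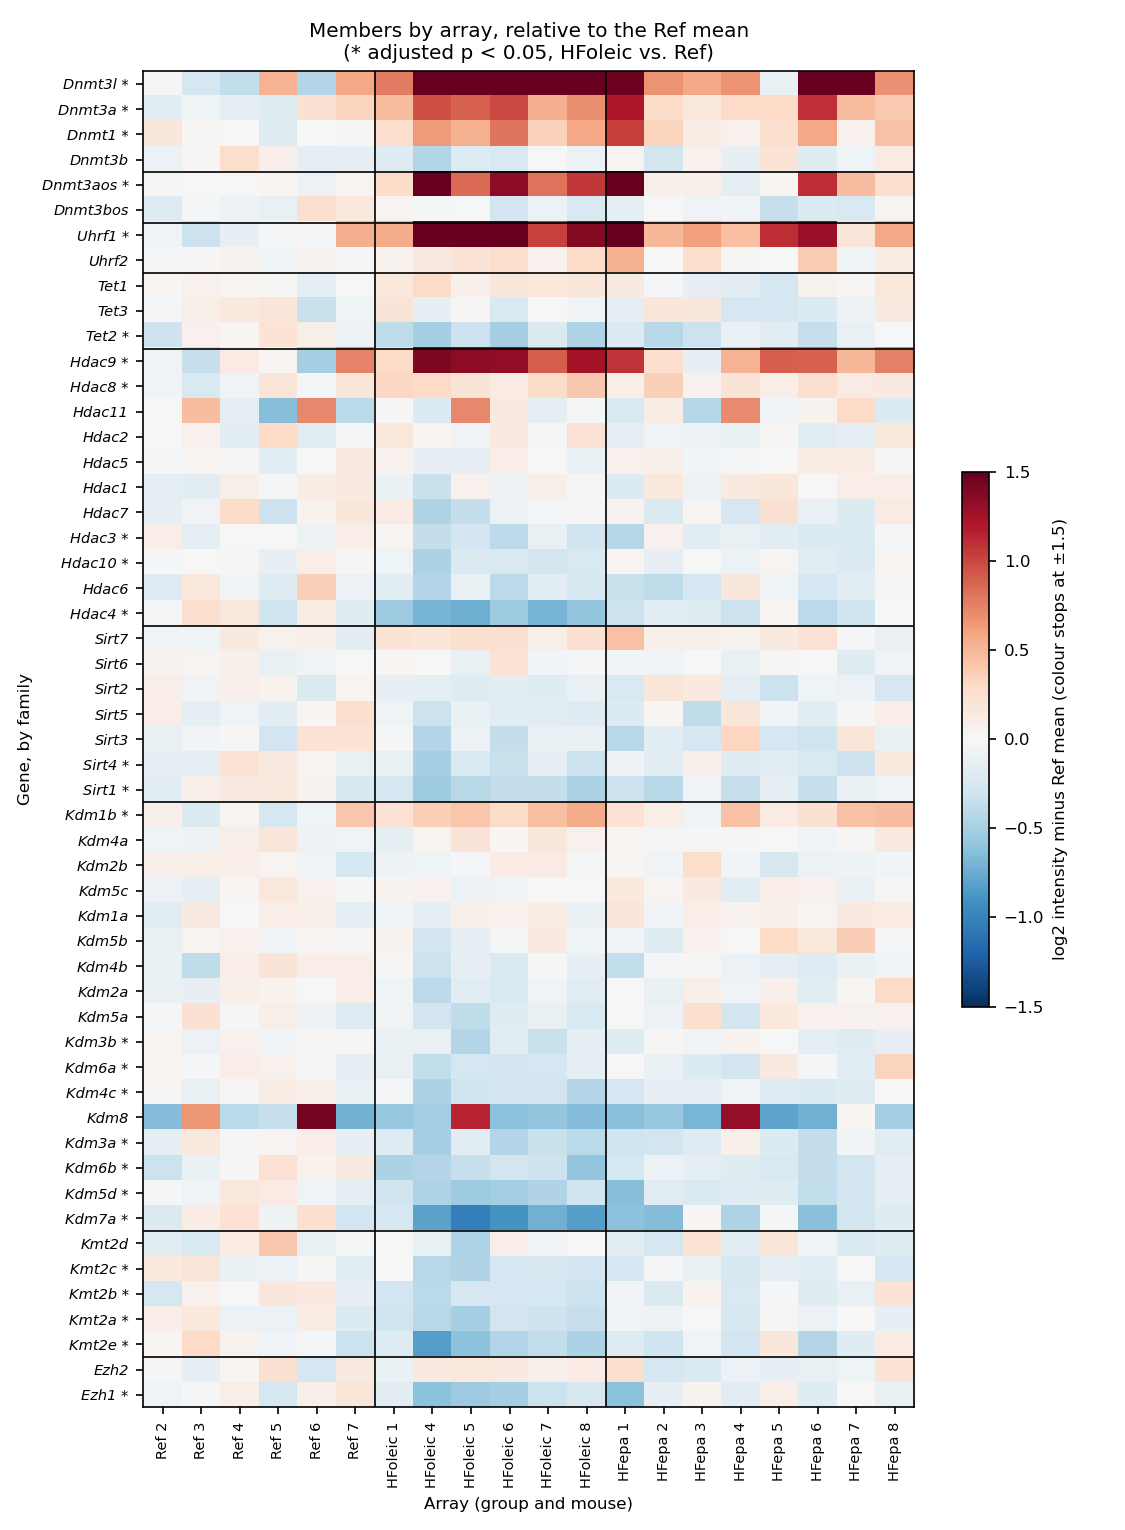
Each cell is the log2 intensity of a member (rows, grouped by family) on an array (columns) minus the mean of the 6 Ref arrays, with red above and blue below that mean, and asterisks mark the 26 members called in HFoleic vs. Ref. Dnmt3l, Uhrf1 and Hdac9 are red on most HFoleic arrays and, to varying degrees, on several HFepa arrays, Kdm7a and Hdac4 are blue on most HFoleic arrays, and Kdm8 follows a few single arrays of all groups.

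Among the DNA methyltransferases, 3 of 4 were higher in HFoleic and none was lower, although Dnmt3b was called lower with the slide as a block. For Dnmt3l, the log2 intensity had its lowest, median and highest values at 6.17, 6.46 and 7.19 in Ref, 7.38, 8.43 and 8.9998 in HFoleic, and 6.50, 7.29 and 8.72 in HFepa. Every HFoleic mouse lay above every Ref mouse, and the HFepa mice covered most of both ranges. The log2 fold change in HFoleic vs. Ref was 1.75 ± 0.32 (standard error), a 3.36-fold difference (adjusted p = 0.000808). A dimmer probe of the same gene gave -0.18 ± 0.09 (adjusted p = 0.137), so the rise of Dnmt3l rests on the brighter probe, at chr10:77526112-77526171 (mm9, plus strand).

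Dnmt3a, the main de novo enzyme, had lowest, median and highest log2 intensities of 10.06, 10.14 and 10.58 in Ref, 10.72, 11.04 and 11.24 in HFoleic, and 10.41, 10.60 and 11.46 in HFepa. The Ref and HFoleic ranges did not overlap, and the highest value of all was in an HFepa mouse, mouse 1. Dnmt3a was 1.69-fold higher in HFoleic (log2 fold change 0.76 ± 0.17, adjusted p = 0.00252). Its second probe rose by 1.55 ± 0.34 (adjusted p = 0.00243) and its dimmest probe gave 0.02 ± 0.10 (adjusted p = 0.893). Dnmt1, the maintenance enzyme, had lowest, median and highest values of 7.73, 7.93 and 8.08 in Ref, 8.18, 8.47 and 8.72 in HFoleic, and 7.98, 8.20 and 8.95 in HFepa, again without overlap between Ref and HFoleic. It was 1.44-fold higher in HFoleic (log2 fold change 0.53 ± 0.14, adjusted p = 0.00646). Dnmt3b, the other de novo enzyme, was not called, with a log2 fold change of -0.19 ± 0.09 (adjusted p = 0.121). With the slide as a block in the model, Dnmt3b was called lower (-0.22, adjusted p = 0.0416).

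Dnmt3aos, an opposite-strand transcript by its name, with its probe at chr12:3859360-3859419 (mm9, minus strand), ranged from 6.64 to 6.77 in Ref with a median of 6.73, from 7.0003 to 8.27 in HFoleic with a median of 7.68, and from 6.58 to 8.29 in HFepa with a median of 6.89. The narrow Ref range lay below every HFoleic mouse. The log2 fold change was 0.98 ± 0.25 (adjusted p = 0.00546). Dnmt3bos, the corresponding transcript at Dnmt3b, was not called (log2 fold change -0.10 ± 0.08, adjusted p = 0.401).

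Uhrf1, which recognizes DNA methylated on a single strand and recruits Dnmt1, is shown with its promoter because it rose and holds 1 of the words searched, so it was chosen with the match known. The sequence below is the 250 bases before the RefSeq start site of Uhrf1 that has the match (GRCm38.p6, chr17:56304063-56304312, plus strand), with the capitals marking a match to a word bound by E2F factors, which drive genes of DNA replication.
Uhrf1: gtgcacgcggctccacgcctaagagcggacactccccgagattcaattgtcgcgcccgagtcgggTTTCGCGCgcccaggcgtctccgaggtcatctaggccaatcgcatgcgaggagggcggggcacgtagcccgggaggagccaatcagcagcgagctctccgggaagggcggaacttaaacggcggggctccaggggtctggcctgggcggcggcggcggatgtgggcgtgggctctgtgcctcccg

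The words searched were TTTCCCGC, TTTGGCGC and TTTCGCGC on both strands, and the last can overlap its own reverse complement. The match in Uhrf1 began 185 bases before the start, and Uhrf1 had 2 start sites in the table, of which 1 held a word. At least 1 of these words was in 1.53% of the 32,851 promoters, over the same 250 bases, and in at least 1 promoter of 1.78% of the 27,025 symbols. Among the members with a promoter in the table, words were found in 2 of the 8 that rose (Dnmt1 and Uhrf1), in 1 of 12 that fell (Sirt4) and in 0 of 22 that were not called. These members had 16, 15 and 30 promoters, so those that rose had more promoters per gene in which a word could occur. The match in Dnmt1 began 219 bases before 1 of its 3 starts. A match is a description of letters, not of binding.

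Uhrf1 had lowest, median and highest log2 intensities of 7.11, 7.39 and 7.98 in Ref, 7.98, 8.93 and 9.38 in HFoleic, and 7.61, 8.02 and 9.54 in HFepa. HFoleic mouse 1 and Ref mouse 7 met at the boundary, with the HFoleic value just above, and the remaining mice of these groups were well separated. The probe, at chr17:56462770-56462829 (mm9, plus strand), was 2.61-fold higher in HFoleic (log2 fold change 1.38 ± 0.28, adjusted p = 0.00141). The difference was 1.42, 1.69 and 1.40 on the 3 slides taken separately. Uhrf2, a related protein that does not stand in for Uhrf1 in maintenance, was not called on any of its 5 probes, the brightest giving 0.17 ± 0.09 (adjusted p = 0.162).

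**Figure D2:**
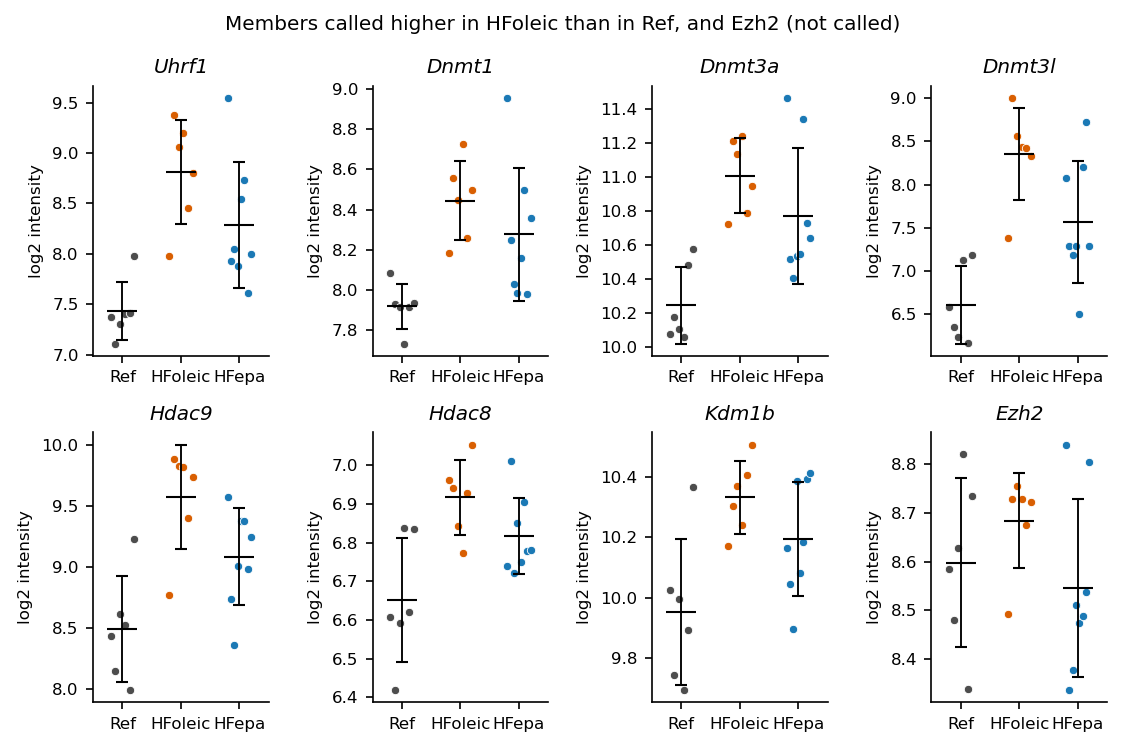
Points are the log2 intensities of single mice for 7 of the members called higher in HFoleic than in Ref, and for Ezh2, which was not called, with black bars for the mean ± SD of 6 Ref, 6 HFoleic and 8 HFepa mice. For Dnmt1, Dnmt3a and Dnmt3l, the HFoleic points lie above all Ref points, and the HFepa points span from the Ref to the HFoleic range.

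Genes of dividing cells moved with these members. Of the 24 proliferating-cell genes, which do not include any member, 22 were higher and 1 was lower in HFoleic vs. Ref, with a median log2 fold change of 1.00. Mki67, which marks cycling cells, averaged 8.78 ± 0.57 in Ref (SD, n = 6), 10.33 ± 0.59 in HFoleic (SD, n = 6) and 9.505 ± 0.69 in HFepa (SD, n = 8), and rose by 1.55 in HFoleic (adjusted p = 0.00238). The summed intensity of the list, whose brightest gene was Pcna, ranged from 15,870 to 19,122 in Ref, from 20,059 to 35,878 in HFoleic and from 17,256 to 32,113 in HFepa. The exception, Mcm7, fell by 0.41 on the log2 scale. Macrophage markers moved too, 9 of 12 being higher and none lower, with Cd68 up by 2.41 (adjusted p = 0.00158), as did 10 of 12 genes of the lipid-associated macrophage list. Summed intensities of the macrophage list, whose brightest gene was Lyz2, ranged from 65,976 to 100,502 in Ref and from 157,931 to 327,577 in HFoleic. Among the markers of fibroblasts and adipose progenitors, 6 of 12 were higher and none lower. The part of cell division, of macrophages or of fibroblasts in the changes of the members was not tested.

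**Figure D3:**
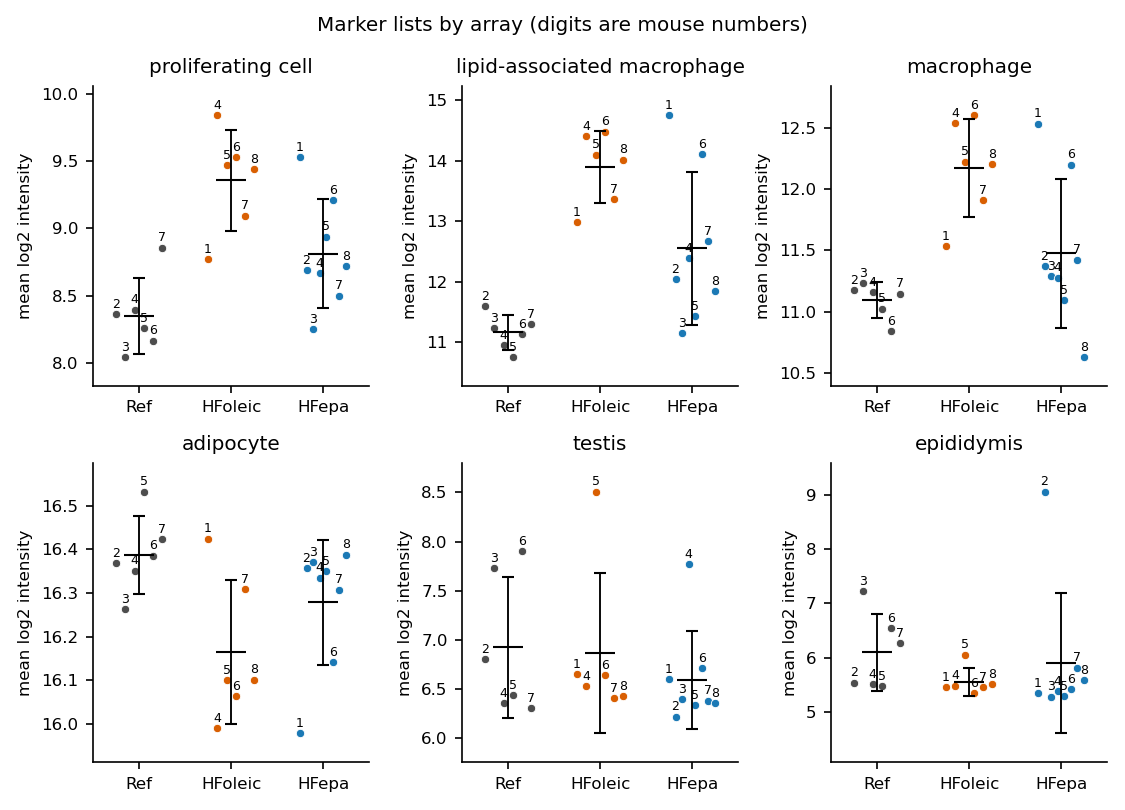
Points are the mean log2 intensity of each marker list on single arrays, labelled by mouse number, with black bars for the mean ± SD of each group. HFepa mice 1 and 6 lie with the HFoleic mice in the proliferating-cell and macrophage lists, the testis list is raised on single arrays of all 3 groups, and the epididymis list is highest on HFepa mouse 2 and Ref mouse 3.

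Among the Tet genes, Tet2 fell and Tet1 and Tet3 were not called, 33.3% beside 31.9% of all gene names. Tet2 had lowest, median and highest values of 10.16, 10.52 and 10.67 in Ref, 9.97, 10.06 and 10.26 in HFoleic, and 10.05, 10.28 and 10.48 in HFepa. The Ref and HFoleic ranges overlapped by the lowest Ref mouse, and the HFepa mice overlapped both groups. The log2 fold change was -0.39 ± 0.09 (adjusted p = 0.00241), and the 2 dimmer probes were not called. Every HFoleic mouse was above every Ref mouse for Tet1 (6.53 to 6.75 against 6.33 to 6.52), but its log2 fold change of 0.17 ± 0.07 missed the threshold (adjusted p = 0.0587). A second Tet1 probe rose by 0.43 ± 0.10 (adjusted p = 0.00307). For Tet3, the brighter probe gave -0.03 ± 0.10 (adjusted p = 0.853) and the dimmer one rose by 0.20 ± 0.07 (adjusted p = 0.0275).

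Of the 11 numbered histone deacetylases, 2 rose, 3 fell and 6 were not called, so 45.5% were called beside 31.9% of all gene names. The median log2 fold change was -0.06. Hdac9, a class IIa enzyme that holds back adipocyte differentiation, had lowest, median and highest values of 7.99, 8.48 and 9.23 in Ref, 8.77, 9.77 and 9.89 in HFoleic, and 8.36, 9.13 and 9.57 in HFepa. HFoleic mouse 1 lay within the Ref range and the other 5 HFoleic mice lay above it. Hdac9 was 2.12-fold higher in HFoleic (log2 fold change 1.08 ± 0.23, adjusted p = 0.00174), and each of its 5 probes rose, by 0.55 to 1.25. Hdac8, a class I enzyme, rose by 0.26 ± 0.07 (adjusted p = 0.00976) on its brighter probe, from 6.42, 6.61 and 6.84 as lowest, median and highest values in Ref to 6.77, 6.94 and 7.05 in HFoleic, with 6.72, 6.78 and 7.01 in HFepa. The ranges of Hdac8 overlapped, its other probe was not called, and its call was lost without the 5 arrays with raised testis or epididymis markers.

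Hdac4, like Hdac9 a class IIa enzyme that shuttles between cytoplasm and nucleus, moved the opposite way. It had lowest, median and highest values of 9.98, 10.32 and 10.51 in Ref, 9.54, 9.64 and 9.74 in HFoleic, and 9.88, 10.04 and 10.30 in HFepa. The HFoleic mice lay together below every Ref mouse and every HFepa mouse. The log2 fold change of -0.63 ± 0.09, from the probe at chr1:93829554-93829613 (mm9, minus strand), had the smallest adjusted p among the members (0.000332), and the other 2 probes fell by 0.54 and 0.44 (adjusted p = 0.000483 and 0.00126). On the 3 slides, the difference was -0.66, -0.45 and -0.85. Hdac10, which removes acetyl groups from polyamines, fell by 0.25 ± 0.07 (adjusted p = 0.00732), with lowest, median and highest values of 10.53, 10.66 and 10.75 in Ref, 10.18, 10.43 and 10.59 in HFoleic, and 10.45, 10.61 and 10.70 in HFepa. The call of Hdac10 was also lost without those 5 arrays, and its dimmer probe was not called (-0.03). Hdac3, the deacetylase of the nuclear receptor corepressor complexes, fell by 0.23 ± 0.08 (adjusted p = 0.0331), and its dimmer probe was not called (-0.02). The call of Hdac3 was lost when any of 8 single arrays was left out, with median centring and with the slide as a block. The class I enzymes Hdac1 and Hdac2 gave -0.06 (95% interval -0.23 to 0.12) and 0.08 (95% interval -0.09 to 0.24), and Hdac5, Hdac6, Hdac7 and Hdac11 lay between -0.25 and 0.08.

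Of the 7 sirtuins, which use NAD as cosubstrate, Sirt1 and Sirt4 fell and none rose. This was 28.6% of the family, near the 31.9% of all gene names called. Sirt1, the nuclear sirtuin that acts on histones and on regulators of metabolism, had lowest, median and highest values of 10.43, 10.74 and 10.81 in Ref, 10.14, 10.28 and 10.40 in HFoleic, and 10.25, 10.45 and 10.61 in HFepa. The HFoleic mice all lay below the Ref mice, by a narrow margin from the lowest of them, and the HFepa mice overlapped both. The log2 fold change was -0.40 ± 0.08 (adjusted p = 0.00163), and its dimmer probe was not called (-0.15, adjusted p = 0.226). The mitochondrial Sirt4 fell by 0.27 ± 0.09 (adjusted p = 0.0245), with ranges of 9.96 to 10.34 around a median of 10.08 in Ref, 9.62 to 10.0003 around 9.83 in HFoleic and 9.81 to 10.26 around 9.96 in HFepa. Without any of Ref mice 4 and 5 or HFoleic mice 4 and 6, the call of Sirt4 was lost, as it was with median centring, and its other 2 probes were not called (-0.06 and -0.03). Sirt7, a nucleolar enzyme, was not called on its brightest probe (0.19 ± 0.08, adjusted p = 0.0591), while 2 of its 5 probes rose, by 0.26 and 0.35.

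**Figure D4:**
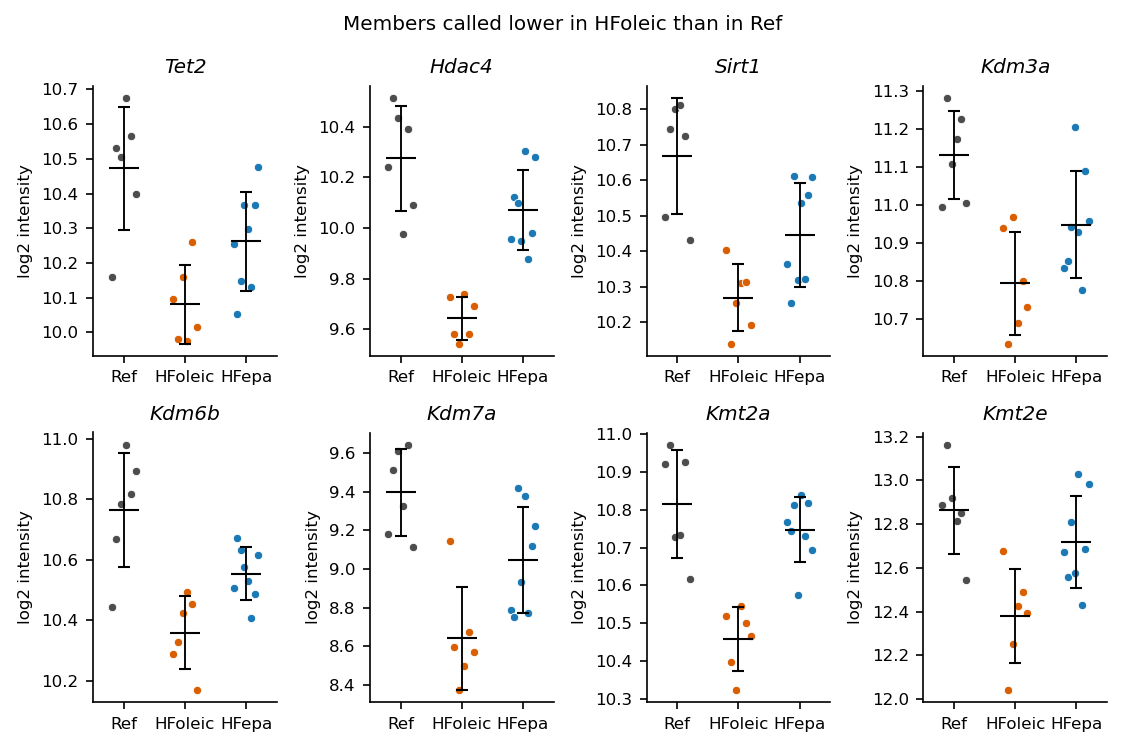
Points are the log2 intensities of single mice for 8 members called lower in HFoleic than in Ref, with black bars for the mean ± SD of 6 Ref, 6 HFoleic and 8 HFepa mice. For Hdac4 the 6 HFoleic mice lie below all mice of both other groups, and for Kmt2a they lie below all Ref and all HFepa mice.

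The lysine demethylases were the largest family, and of 17 tested, 7 fell, 1 rose and 9 were not called. This was 47.1% called, beside 31.9% of all gene names, with a median log2 fold change of -0.21. Kdm7a, which acts on silencing methyl marks of histone H3, had the largest decrease of any member. Its lowest, median and highest values were 9.11, 9.42 and 9.64 in Ref, 8.37, 8.58 and 9.14 in HFoleic, and 8.75, 9.02 and 9.42 in HFepa. HFoleic mouse 1 lay within the Ref range and the other 5 HFoleic mice below it. The log2 fold change was -0.75 ± 0.14 (adjusted p = 0.00102), and its second probe fell by 0.67 ± 0.14 (adjusted p = 0.00161).

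Kdm6b, which removes the Polycomb mark from histone H3 and is induced in macrophages by inflammatory stimuli, had lowest, median and highest values of 10.44, 10.80 and 10.98 in Ref, 10.17, 10.38 and 10.49 in HFoleic, and 10.41, 10.56 and 10.67 in HFepa. It fell by 0.41 ± 0.08 (adjusted p = 0.00128), the ranges overlapping by a single Ref mouse. Kdm3a, whose loss makes mice obese, had values of 10.99, 11.14 and 11.28 in Ref, 10.64, 10.77 and 10.97 in HFoleic, and 10.78, 10.94 and 11.20 in HFepa, and fell by 0.34 ± 0.08 (adjusted p = 0.00355) with no overlap between Ref and HFoleic, while its dimmer probe was not called (-0.20, adjusted p = 0.0883). Kdm5d, a demethylase of active marks encoded on the Y chromosome, had values of 9.27, 9.37 and 9.56 in Ref, 8.87, 8.95 and 9.11 in HFoleic, and 8.77, 9.20 and 9.26 in HFepa. The Ref mice lay above all mice of both other groups, and the log2 fold change was -0.43 ± 0.08 (adjusted p = 0.000973). The probes of Kdm5d did not agree in sign, as its second gave 0.24 ± 0.09 (adjusted p = 0.0562) and another -0.46 ± 0.09 (adjusted p = 0.000916).

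Smaller decreases were called for Kdm4c (-0.30), Kdm6a (-0.24) and Kdm3b (-0.22). None of their other probes was called, and the second probe of Kdm3b had the opposite sign (0.08, adjusted p = 0.429). The call of Kdm6a was lost when any of 9 single arrays was left out. Kdm1b, which demethylates histone H3 at sites that acquire DNA methylation in oocytes, was the only demethylase called higher, by 0.38 ± 0.11 (adjusted p = 0.0111) on its brighter probe, while its other probe gave -0.15 ± 0.07 (adjusted p = 0.119). The related Kdm1a gave -0.01 (95% interval -0.14 to 0.13). Among those not called on the brightest probe, 2 of 6 probes of Kdm2a fell, by 0.30 and 0.39, and 2 of 5 probes of Kdm5b fell, by 0.34 and 0.32.

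Kdm8 had the widest spread of all members, with SDs of 0.86 in Ref, 0.71 in HFoleic and 0.71 in HFepa. Its 4 highest values were 8.85 in Ref mouse 6, 8.73 in HFepa mouse 4, 8.55 in HFoleic mouse 5 and 8.07 in Ref mouse 3, the same 4 arrays that had the highest testis marker means. Hdac11 was also highest in Ref mouse 6 (6.64), HFoleic mouse 5 (6.64), HFepa mouse 4 (6.64) and Ref mouse 3 (6.38). Without the 5 arrays with raised testis or epididymis markers, the log2 fold change of Kdm8 in HFoleic vs. Ref was -0.06 in place of -0.30, and neither was called. The part of other tissue in the values of Kdm8 and Hdac11 was not tested.

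The Kmt2 family is named for enzymes that place methyl groups of active genes on histone H3. All 5 genes had negative log2 fold changes, with a median of -0.30, and 4 were called. Kmt2a had lowest, median and highest values of 10.62, 10.83 and 10.97 in Ref, 10.32, 10.48 and 10.55 in HFoleic, and 10.57, 10.76 and 10.84 in HFepa. The HFoleic mice lay below all other mice, and the log2 fold change was -0.36 ± 0.07 (adjusted p = 0.000928). Its 2 far dimmer probes were not called (-0.19 and -0.06). Kmt2e, which lacks methyltransferase activity despite its name, had values of 12.55, 12.87 and 13.16 in Ref, 12.04, 12.41 and 12.68 in HFoleic, and 12.43, 12.68 and 13.03 in HFepa. It fell by 0.48 ± 0.12 (adjusted p = 0.00428), and 3 of its 4 probes fell. Kmt2b fell by 0.30 ± 0.08 (adjusted p = 0.00829), from 10.39, 10.68 and 10.82 in Ref to 10.24, 10.37 and 10.40 in HFoleic, with 10.42, 10.57 and 10.86 in HFepa. Kmt2c fell by 0.27 ± 0.08 (adjusted p = 0.0134), from 11.9998, 12.12 and 12.34 in Ref to 11.71, 11.88 and 12.17 in HFoleic, with 11.90, 12.01 and 12.17 in HFepa, and its other 2 probes were not called (-0.06 and -0.12). The ranges of Kmt2b, Kmt2c and Kmt2e in Ref and HFoleic overlapped. Without the 5 arrays with raised testis or epididymis markers, of the Kmt2 genes only Kmt2a was called. Kmt2d was not called (-0.08, 95% interval -0.32 to 0.15).

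Ezh1 and Ezh2 are alternative catalytic subunits of Polycomb repressive complex PRC2, of which Ezh1 is the form of resting cells and Ezh2 that of dividing cells. Ezh1 fell by 0.40 ± 0.11 (adjusted p = 0.00915), with lowest, median and highest values of 13.91, 14.20 and 14.36 in Ref, 13.57, 13.77 and 14.02 in HFoleic, and 13.57, 14.07 and 14.28 in HFepa. Its ranges overlapped, and its 2 far dimmer probes were not called. The call of Ezh1 was lost without the 5 arrays with raised testis or epididymis markers, and when its probes were averaged. Ezh2 did not pass the test on its brightest probe (0.09, 95% interval -0.11 to 0.28, adjusted p = 0.52). Of its 5 probes, 1 rose, by 0.37 ± 0.11 (adjusted p = 0.018).

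Across the members, 6 had all HFoleic mice above all Ref mice and 6 had all HFoleic mice below them, 22.6% of the members beside 14% of all gene names. All 130 tested probes of the members gave 19 probes that rose and 28 that fell, where 30.8% of all tested probes were called, and no member had probes called in both directions. Counted by probe, the members stood less far above the whole array than when read by their brightest probe. Another 7 members, Ezh2, Kdm2a, Kdm5b, Sirt5, Sirt7, Tet1 and Tet3, had a called probe although their brightest probe was not called. All 26 called members kept their sign on each of the 3 slides, each of which held arrays of every group, although slide 2 held only 1 HFoleic array, that of mouse 4. These members were called on the same arrays pooled, so the agreement of the slides is not a separate test. In the same comparison 5 of 12 adipocyte markers were lower and 1 was higher in HFoleic, with log2 fold changes of -1.18 for the lipase gene Lipe (adjusted p = 0.000517) and 1.13 for the leptin gene Lep (adjusted p = 0.000741). The part of adipocyte content in the decreases of the members was not tested.

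The second comparison asks how the obesogenic diet in the EPA lineage differed from the reference (HFepa vs. Ref), and it uses the same 6 Ref arrays. None of the 53 members was called by limma, while 2.45% of all gene names were. At an unadjusted p below 0.05, 15 members passed, beside 5512 of the 25,618 gene names tested. Kdm5d came closest, with a log2 fold change of -0.27 ± 0.07 (adjusted p = 0.0557), and it was the only member for which the HFepa and Ref mice did not overlap (1.04% of all gene names had no overlap). Dnmt3a gave 0.53 ± 0.16 (adjusted p = 0.0745), Uhrf1 gave 0.85 ± 0.26 (adjusted p = 0.0777) and Dnmt3l gave 0.96 ± 0.30 (adjusted p = 0.0834). The intervals of these members were wide, from 0.31 to 1.39 for Uhrf1 and from 0.34 to 1.58 for Dnmt3l, and HFepa mice 1 and 6 were the 2 highest of their group for Uhrf1, Dnmt3a and Dnmt1. For Uhrf1 the difference was 1.45 on slide 1, which held HFepa mice 1, 5 and 8, and 0.49 and 0.46 on slides 2 and 3. HFepa mouse 6 was on slide 2, as was Ref mouse 7, the highest Ref mouse for Uhrf1. The Kmt2 genes lay between -0.15 and -0.07. Array weights called 3 members, Dnmt3a, Dnmt3l and Kdm5d, beside 3.97% of all gene names. Without Ref mouse 7 alone, 6 were called beside 4.71% of all gene names, Dnmt3a, Uhrf1, Hdac9 and Kdm1b higher and Kdm5d and Sirt1 lower.

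**Figure D5:**
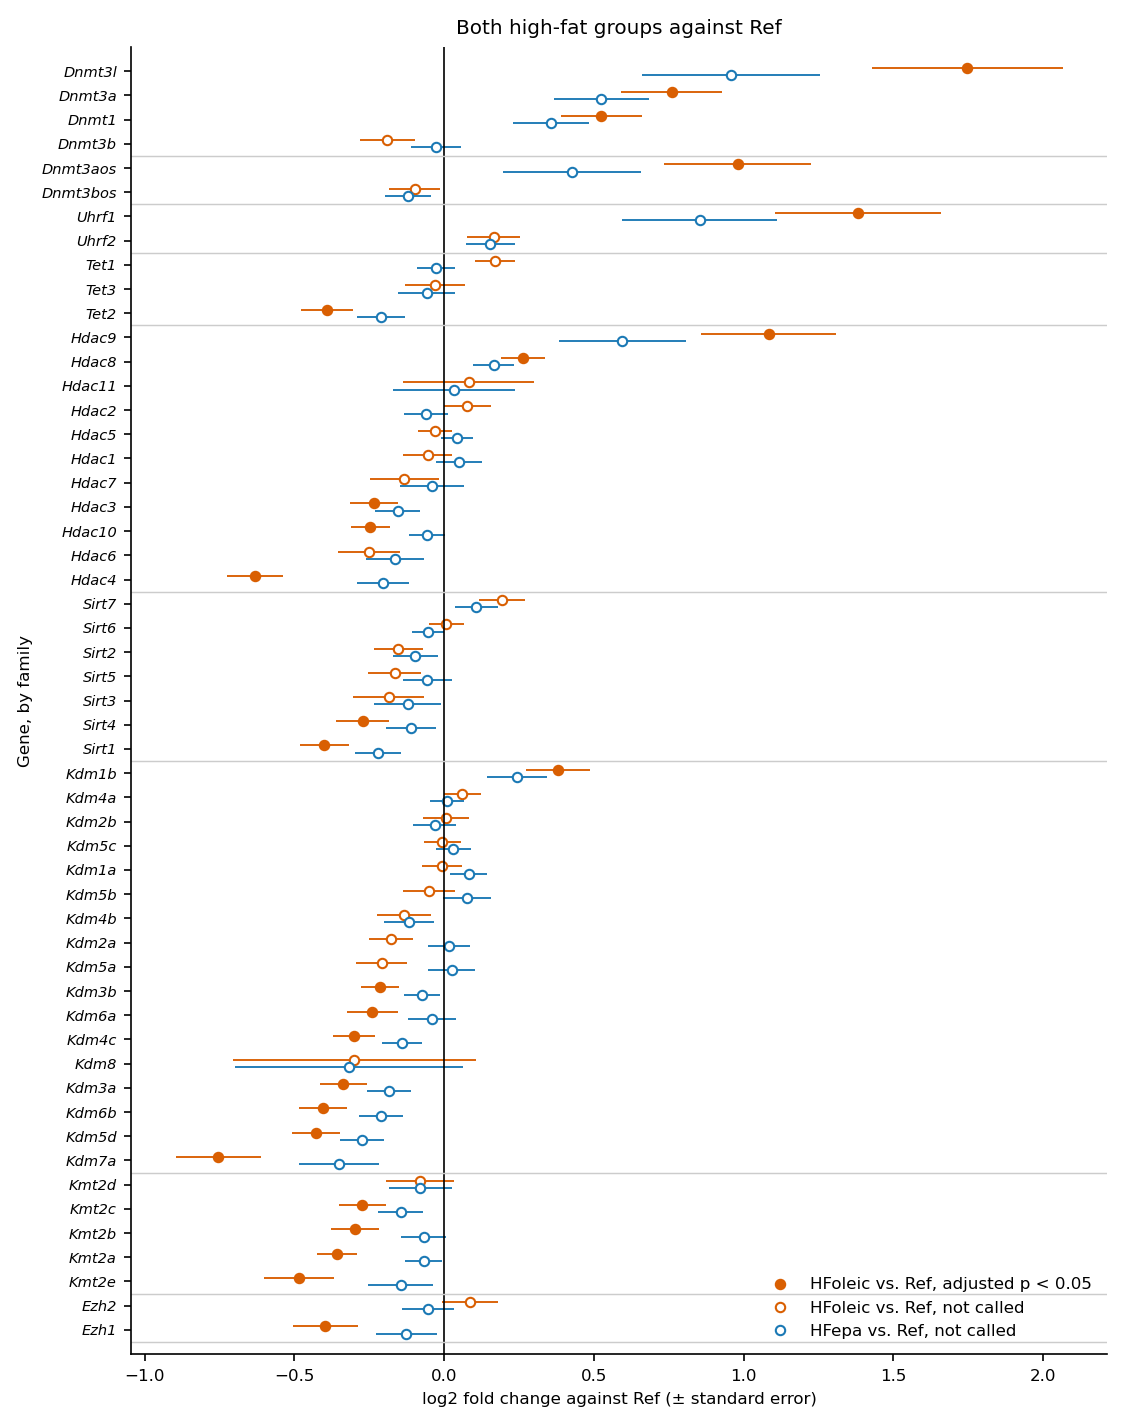
Points are log2 fold changes ± standard error of the 53 members by family for HFoleic vs. Ref (orange) and HFepa vs. Ref (blue), filled where the adjusted p was below 0.05. Filled points occur for 26 members in HFoleic vs. Ref and for none in HFepa vs. Ref, both comparisons being made against the same 6 Ref arrays.

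The third comparison sets the lineages against each other under the obesogenic diet (HFepa vs. HFoleic) and is the test of their difference. No member was called by limma, nor was any gene name when read by its brightest probe (0%), and 19 members passed an unadjusted p below 0.05, beside 5331 of the 25,618 gene names. The smallest adjusted p among the members, 0.117, belonged to Hdac4 and Kmt2a. Hdac4 was higher in HFepa by 0.43 (95% interval 0.25 to 0.61) and Kmt2a by 0.29 (95% interval 0.16 to 0.42), while the other 2 probes of Kmt2a gave 0.12 and 0.003. For both genes and for Kmt2b, which was higher by 0.23 (95% interval 0.07 to 0.39), all 8 HFepa mice lay above all 6 HFoleic mice, as for 0.355% of all gene names in either direction. Dnmt3l was lower in HFepa by a log2 fold change of -0.79 (95% interval -1.41 to -0.17, adjusted p = 0.155), Dnmt3aos by -0.55 (95% interval -1.03 to -0.07, adjusted p = 0.186) and Uhrf1 by -0.53 (95% interval -1.07 to 0.01, adjusted p = 0.254). Marker lists differed too, although no marker was called. Median log2 fold changes were -1.35 for the lipid-associated macrophage, -0.80 for the macrophage and -0.56 for the proliferating-cell list, and 0.54 for mesothelial markers. The part of these cells in the differences of the members was not tested. With the slide as a block, 5 members were called higher in HFepa, namely Hdac4, Hdac10, Kdm7a, Kmt2a and Kmt2e, beside 3.16% of all gene names. Array weights called 12 members, 8 higher and 4 lower, beside 11.4% of all gene names. Without the block or weights, leaving out HFoleic mouse 1 gave 6 called members, all higher, beside 4.36% of all gene names, and leaving out HFepa mouse 1 gave 7, 4 higher and 3 lower, beside 7.71%.

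Other chromatin genes, both partners of these enzymes and further enzymes and suppliers, were read from 8 lists, 138 genes in all, of which 137 were tested. In HFoleic vs. Ref, 24 rose and 32 fell, 40.9% beside 31.9% of all gene names. In HFepa vs. Ref, 2 rose and 4 fell, 4.38% beside 2.45%, and in HFepa vs. HFoleic none was called. At an unadjusted p below 0.05, 34 of the 137 passed in HFepa vs. HFoleic, beside 5331 of the 25,618 gene names.

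Among the 16 Polycomb partners, 2 rose and 5 fell. Cbx7, a chromodomain subunit of the complex PRC1, changed by -0.86 (adjusted p = 0.00118) and Phf1, an accessory subunit of PRC2, by -0.52 (adjusted p = 0.000515). Of 22 further histone methyltransferases, 5 rose and 4 fell, led by Setd1a at -0.52, Suv420h1 at -0.40 and Nsd1 at 0.23. Of 9 protein arginine methyltransferases, 1 rose and 3 fell, with Carm1 at -0.39, Prmt1 at -0.27 and Prmt2 at 0.18. Of 15 histone acetyltransferases, 1 rose and 5 fell, with the coactivator Ncoa1 at -0.45, Kat6b at -0.22 and Hat1, which acetylates newly made histones, at 0.37.

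Of 21 partners in deacetylase complexes, 5 rose and 3 fell. Ncor1, the corepressor that activates Hdac3, changed by -0.45 (adjusted p = 0.00296), Tbl1xr1 of the same complex by 0.35 (adjusted p = 0.00242) and Mta1 of the NuRD complex by -0.39 (adjusted p = 0.00593). Of 11 COMPASS partners, the scaffold of the Kmt2 enzymes, 3 rose and 2 fell, with Hcfc1 at 0.23, Rbbp5 at 0.33 and Cxxc1 at -0.25.

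Of 18 genes that read or repair methylated DNA, 3 rose and 6 fell. The stress genes Gadd45g and Gadd45a changed by -1.37 (adjusted p = 0.0011) and 1.09 (adjusted p = 0.00294). Of 25 tested genes that supply methyl groups or cofactors, 4 rose and 4 fell, 32% and so near the share of all gene names. Idh1, which makes the cosubstrate of Tet and most Kdm enzymes, rose by 1.03 (adjusted p = 0.000532), Nnmt, which spends methyl groups on nicotinamide, rose by 0.67 (adjusted p = 0.000768), and Nmnat3, an enzyme of NAD synthesis, changed by -0.73 (adjusted p = 0.000447). In HFepa vs. Ref, Nmnat3 fell by 0.48 (adjusted p = 0.0311) and Carm1 by 0.30 (adjusted p = 0.0335), and Prmt2 rose by 0.25 (adjusted p = 0.0289). In this comparison no gene of the 8 lists was called with the replicate block or with only the compared groups in the model. None was called without the 5 arrays with raised testis or epididymis markers. The same held without any 1 of Ref mice 3 and 6 and HFepa mice 1 and 6. In each of these settings the share of all gene names called was also below the 2.45% of the main fit, with values in the closing section.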

How the data were processed

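Visceral adipose tissue RNA of 20 mice was measured on 1-colour Agilent arrays. Per the file headers, the authors extracted linear intensities with Agilent Feature Extraction 10.10.1.1, and they deposited log2 values made from the median signal with a probe filter and quantile normalization. Here control spots and flagged spots were removed, probes well above background on at least 6 arrays were kept (39,390 probes, 25,618 gene names), log2 median intensities were quantile normalized without background correction, and spots of a probe were averaged in R 4.3.3. A group-means model was fitted with limma 3.58.1 to all 20 arrays, with eBayes, and p-values were adjusted by Benjamini–Hochberg across every tested probe (threshold 0.05). The code was tested on simulated data. A gene was read by its brightest tested probe, and log2 fold changes carry standard errors. The number of mice limits the precision. Ranges over the mice are given for, per family, up to 4 called members with the smallest p in HFoleic vs. Ref, and up to 3 called genes are named per chromatin list; some are not reported here. Slides and scans coincide. Probe positions are mm9, as in the files. Of the 54 names, 53 are symbols in RefSeq (GRCm38.p6). The members, and the marker and other chromatin lists, were chosen with earlier results of these data known. Alternatives, given in the closing section, changed signal, scaling, filter, model and arrays.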

Additional observations from a re-analysis of the deposited data

Results flagged for a closer look

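In each group of 6 or 8 mice, the highest or lowest mouse of each member was compared with its nearest neighbour, and the gap was divided by the range of the group. Of 159 groups, 10 passed the 95% limit of Dixon, where chance gives about 5%. Kdm8 had the largest ratio, 0.926 in HFoleic, where mouse 5 lay at 8.55 and the next mouse at 6.88, and it also passed in HFepa (0.610, mouse 4). Hdac11 passed in HFoleic (0.6252), again with mouse 5 highest. These are arrays with raised testis markers, and the part of other tissue was not tested. In HFepa, mouse 1 was set apart at the low end for Ezh1 (0.612, at 13.57 against 14.003 for the next mouse) and for Kdm5d (0.546, at 8.77 against 9.04). For Kdm4a, HFepa mouse 8 was highest (0.591). In HFoleic, mouse 1 was lowest for Ezh2 (0.692) and mouse 5 was lowest for Kmt2d (0.645). In Ref, mouse 6 was lowest for Tet1 (0.640) and mouse 7 was highest for Uhrf1 (0.643).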

How the results depend on the processing

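Under 34 alternatives no log2 fold change of the 26 members called in HFoleic vs. Ref turned sign, and 13 of these members were called in each of them: Dnmt3a, Dnmt3l, Uhrf1, Tet2, Hdac4, Hdac9, Sirt1, Kdm3a, Kdm4c, Kdm5d, Kdm6b, Kdm7a and Kmt2a. In HFoleic vs. Ref, the count of called members was 15 without the 5 arrays with raised testis or epididymis markers, an alternative chosen after seeing the data, 21 when the probes of a gene were averaged (31.5% of all gene names, with Ezh1, Hdac3, Hdac10, Kdm1b, Kdm3b, Kmt2c and Sirt4 lost), 31 with array weights (41.7% of all gene names), and from 23 to 29 when single mice were left out. The 56 called genes of the 8 other chromatin lists became 26 without the 5 arrays (17.2% of all gene names), 32 with the replicate block (21.1%), and from 47 to 60 without single mice. In HFepa vs. Ref, where no member was called, 1 was called when probes had to be above background on every array of a group (3.39% of all gene names) and 3 with array weights (3.97%). Without single mice, from 0 to 6 members were called. These were 6 without Ref mouse 7 (4.71% of all gene names), 3 without HFepa mouse 3 (7.03%), and 1 without Ref mouse 2 (1.84%) or HFepa mouse 8 (3.7%). The 6 called chromatin-list genes became 3 with the processed signal (2.05% of all gene names), 2 with median centring (1.62%) and 3 when the probes of a gene were averaged (2.38%). They became 0 with the replicate block (0.0664%), with only the compared groups in the model (0.425%) and without the 5 arrays (0%). Without single mice they ran from 0 to 14. The count was 0 without Ref mouse 3 (0.441%) or 6 (0.39%) or HFepa mouse 1 (0.835%) or 6 (0.41%), and 14 without HFepa mouse 3 (7.03%). In HFepa vs. HFoleic, where nothing was called, 5 members and 5 chromatin-list genes were called with the slide as a block (3.16% of all gene names), 12 and 18 with array weights (11.4%), and from 0 to 7 of each without single mice (7 and 7 without HFepa mouse 1, 6 and 3 without HFoleic mouse 1). The causes were not tested. Samples of different groups share a slide or a replicate number, and some same-numbered mice share both. Deviations of same-numbered mice correlated from -0.47 to 0.14 in HFoleic and Ref, from -0.43 to 0.15 in HFepa and Ref, and from -0.59 to 0.56 in HFepa and HFoleic. With the replicate block, 19 members were called in HFoleic vs. Ref, beside 21.1% of all gene names, and Dnmt1, Dnmt3aos, Ezh1, Hdac3, Hdac8, Kdm3b, Kmt2c and Sirt4 were not. With the slide as a block, 27 members were called in that comparison, beside 33.1% of all gene names, with Hdac3 lost and Dnmt3b and Kdm5a gained, both lower. The median log2 fold change of all gene names in HFoleic vs. Ref was -0.09 with the processed signal and -0.08 with median centring, in place of -0.04. Dim probes near background limit what could be detected.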

Other observations

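Markers of the remaining cell types were read in the same way. In HFoleic vs. Ref, 2 of 11 T cell markers and 1 of 9 B cell markers, Blnk, were higher and none was lower. These shares, 18.2% and 11.1%, lay below the 31.9% of all gene names called. The median log2 fold changes of the 2 lists were -0.02 and -0.19. None of 10 endothelial markers and none of 10 mesothelial markers was called. The mesothelial list had a wide spread between mice, with a mean log2 intensity of 8.83 ± 1.03 in Ref (SD, n = 6), 8.21 ± 0.96 in HFoleic (SD, n = 6) and 8.72 ± 0.85 in HFepa (SD, n = 8).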
